A study of Rattus norvegicus with 14 samples.

Results

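Solute carriers are the membrane proteins that move nutrients, ions, metabolites and metals across cell and organelle membranes, and they are named by family number, so that the genes examined here are those whose symbol begins with Slc followed by a digit. The members were the probe sets of the Affymetrix rat genome U34 array (chip A) that the platform annotation gives to a single gene with such a symbol, leaving out Slc41a3, Slc10a1, Slc2a2, Slc7a2 and Slc11a2. They comprised 115 genes read by 174 probe sets, of 4736 genes and 8740 probe sets on the array that were not controls. RNA came from the left lateral lobe of the liver of rats on 3 diets that differed in magnesium. The supplemented diet was read on 5 arrays (1 to 5), the standard diet on 5 (6 to 10) and the deficient diet on 4 (11 to 14). The labels give no strain, age, sex, magnesium content or feeding time, and do not say that each array was a separate animal, so p-values measure the spread between these arrays, which may be technical.

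Liver takes up amino acids, fatty acids, organic anions and sugars from portal blood through carriers of the hepatocyte surface, and its mitochondria exchange ATP, phosphate and the acids of intermediary metabolism through carriers of the Slc25 family. Other solute carriers belong chiefly to neurons, kidney tubule or gut epithelium. Intracellular magnesium is held largely as a complex with ATP, and the Slc41 family is known for magnesium transport.

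Signals are given in the deposited intensity units after quantile normalisation, which gives every array the same distribution of values, or as their log2, and a mean in units is the antilog of a mean of log2 values. Because no detection calls were used, a carrier was said to stand above background where its signal on an array exceeded the 95th percentile of 134 reference probe sets for 80 genes of brain, pituitary and retina on that array. This reference level lay between 32.9 and 63.0 units (5.04 to 5.98 on the log2 scale). It marks a bright probe set and not proven expression: the reference gene Drd3 was itself above it on all 14 arrays, and so were the pancreatic genes Ins1 and Ins2. Probe sets differ in how well they bind, so an order of signals between genes is not an order of transcript amounts.

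Each array had 41 to 53 member genes above the reference level, with medians of 47 in the supplemented, 43 in the standard and 47 in the deficient group. Of all 8740 probe sets, 3020 to 3586 were above it on supplemented, 2897 to 3297 on standard and 3130 to 3893 on deficient arrays. The reference level itself was 40.1 to 58.0, 48.3 to 63.0 and 32.9 to 53.9 units in these groups. The member counts by diet are therefore no measure of carriers alone. The log2 ratio of the 3′ to the 5′ Gapdh control probe set, which rises as RNA is degraded or labelled less fully, was 0.71 ± 0.49 (SD, n = 5) in the supplemented, 1.64 ± 0.61 (SD, n = 5) in the standard and 1.84 ± 0.65 (SD, n = 4) in the deficient group. Supplemented array 5 had the lowest mean rank correlation with the other arrays, 0.913 against 0.940 to 0.951 for the rest. It also had the lowest Gapdh ratio, -0.12. Standard array 10 and deficient array 13 had the highest Gapdh ratios, 2.65 and 2.68, and the highest such ratios for beta-actin, 2.63 and 2.85. These 3 are the arrays said below to have stood apart. All 7 of the hepatocyte markers on the array stood above the reference level on all 14 arrays, as did 3 of 4 of macrophages, 2 of 2 of blood cells, 1 of 4 of stellate cells, 3 of 7 of pancreas and 1 of 4 of muscle and fat. None of the 3 endothelial, 2 cholangiocyte and 3 kidney markers did. In bulk tissue, fewer cells of a type and less RNA per cell cannot be told apart.

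Counting each gene by its brightest probe set, 36 of the 115 carriers stood above the reference level on all 14 arrays, 27 on some and 52 on none. By probe set, 46 of 174 (26.4%) were above it on all arrays and 95 (54.6%) on none. Among the 8606 probe sets outside the reference list these shares were 27.8% and 50.2%, a background close to the members' own shares. The share was 35.9% (14 of 39 probe sets) for other transporters, those of the Slco, Abc and Aqp families and 3 partner proteins, and 0.746% for the reference probe sets.

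**Figure D1:**
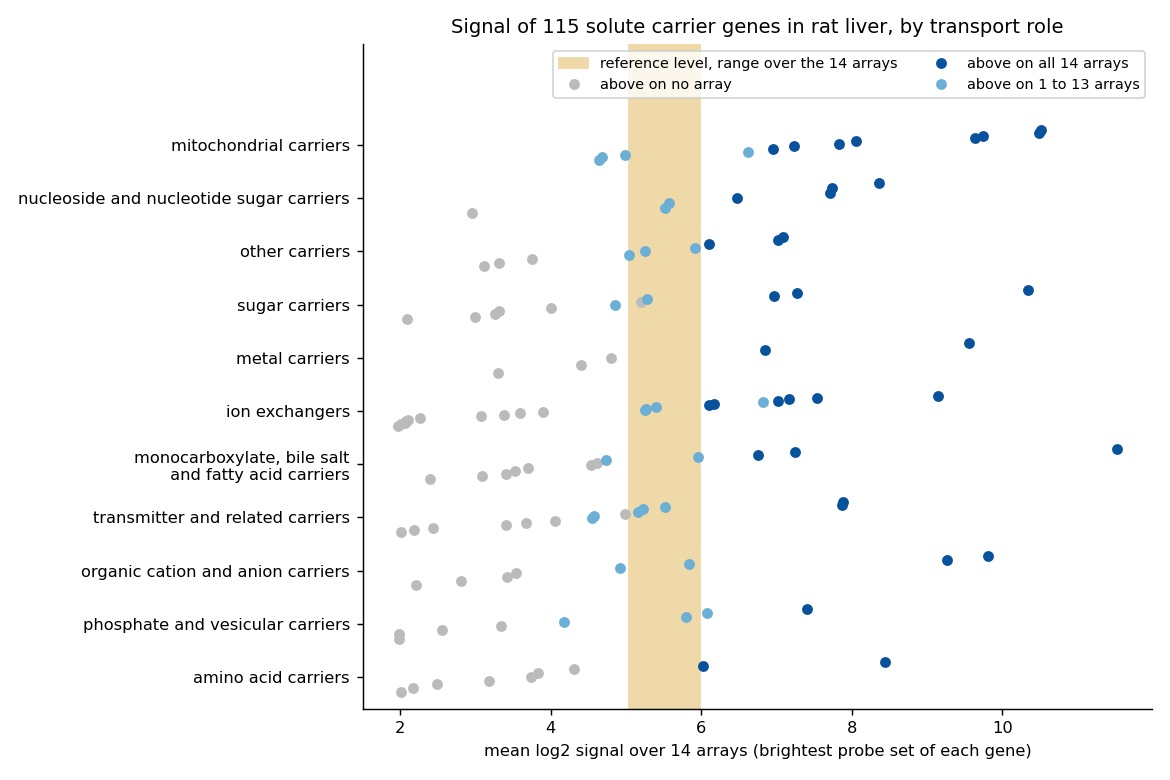
Mean log2 signal over 14 arrays of the brightest probe set of each of 115 solute carrier genes, in rows by transport role; the shaded band is the range of the reference level over the arrays and colours give on how many arrays a gene was above it. All 12 mitochondrial carriers were above it on at least 1 array, whereas 7 of 9 amino acid carriers were above it on none. Slc7a2, Slc38a4 and Slc38a3 were not among the 9.

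Mitochondrial carriers were the role in which every gene was above the reference level on at least 1 array: 8 of 12 were above it on all 14. Slc25a5, an ADP/ATP carrier, had a mean of 1461 units, and Slc25a1, the citrate carrier that supplies cytosolic acetyl units for lipid synthesis, 1432 units. Slc25a10, the dicarboxylate carrier, had 861 units and Slc25a3, the phosphate carrier, 795 units. Next came Slc25a11, the oxoglutarate carrier of the malate-aspartate shuttle, with 265 units, and Slc25a17, a peroxisomal carrier, with 229 units. Slc25a20, which brings acylcarnitines into mitochondria, and Slc25a23, which exchanges magnesium-bound ATP for phosphate, completed the 8. Slc25a30 was above on 13 arrays, Slc25a26 on 2, and Slc25a14 and Slc25a4 on 1 each.

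The ADP/ATP carriers Slc25a5 and Slc25a4 lay on different sides of the reference level. Slc25a5 gave 1649, 1591, 1594, 1586 and 924 units in the supplemented, 1534, 1607, 1405, 2079 and 1331 in the standard and 1580.0, 1449, 1129 and 1336 in the deficient group. Slc25a4, the form known from heart and skeletal muscle, gave 19.2, 25.6, 31.7, 27.5 and 13.1 units in the supplemented, 24.97, 32.8, 18.2, 37.4 and 17.99 in the standard and 34.5, 30.6, 24.8 and 35.6 in the deficient group. Slc25a5 was above the reference level on all 14 arrays and Slc25a4 on 1, and supplemented array 5 was lowest for both genes. Both probe sets are of the kind whose probes match several transcripts, as are 45 of the 174 member probe sets, so related sequences may add to either signal. The 250 bases before their RefSeq start sites are shown because this pair of related carriers differed in standing above background. They come from the GRCr8 build, chrX:120897366-120897615 on the plus strand for Slc25a5 and chr16:52805271-52805520 on the plus strand for Slc25a4, and capitals mark matches to the motifs searched.
Slc25a5: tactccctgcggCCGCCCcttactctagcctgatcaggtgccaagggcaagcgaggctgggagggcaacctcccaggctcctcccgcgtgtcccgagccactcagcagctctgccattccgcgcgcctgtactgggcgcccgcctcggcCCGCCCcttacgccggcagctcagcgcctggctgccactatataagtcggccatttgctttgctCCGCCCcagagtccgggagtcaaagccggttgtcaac
Slc25a4: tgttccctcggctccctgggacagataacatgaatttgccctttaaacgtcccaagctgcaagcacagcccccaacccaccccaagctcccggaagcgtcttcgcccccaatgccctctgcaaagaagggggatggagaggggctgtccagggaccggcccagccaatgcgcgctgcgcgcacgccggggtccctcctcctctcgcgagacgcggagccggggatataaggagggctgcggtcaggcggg
The Slc25a5 window held 3 matches to the GC box and that of Slc25a4 none of the motifs searched.

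The motifs were the GC box GGGCGG, the TATA box TATAAA, GTTAATNAT of the liver factor HNF1 and CAAAGTCCA of the liver factor HNF4, on both strands. A promoter window was found for 33 of the 36 carriers above the reference level on all arrays, for 22 of the 27 above it on some and for 42 of the 52 above it on none. A GC box was present in 54.5%, 59.1% and 40.5% of these, so its share was highest in the middle group. It was present in 32.4% of 27457 promoter windows of all genes, a set not limited to genes on the array. The median observed-to-expected CpG ratio was 0.65, 0.53, 0.51 and 0.41 in the same order. A TATA box was present in 9.09%, 13.6%, 7.14% and 13.1%. None of the 33 held either liver motif. The HNF1 motif was present in 0.67% of all windows, in 1 of the 22 (Slc16a7) and in none of the 42. The HNF4 motif was present in 0.331% of all windows, in none of the 22 and in 1 of the 42. A match is a description of the letters and no evidence of binding.

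Among fatty acid, monocarboxylate and bile salt carriers, 3 of 12 genes stood above the reference level on all arrays. Slc27a2, an acyl-CoA synthetase and fatty acid transport protein of hepatocytes, was the brightest of all 115 carriers. It gave 3164, 3298, 3449, 2837 and 2898 units in the supplemented, 3326, 2689, 2887, 3184 and 2005 in the standard and 2633, 2583, 3214 and 3298 in the deficient group. The 3 diets overlapped, with log2 means of 11.61 ± 0.12 (SD, n = 5), 11.44 ± 0.29 (SD, n = 5) and 11.51 ± 0.19 (SD, n = 4). The other members above on all arrays were Slc16a1, the lactate and pyruvate carrier MCT1, at 152 units and Slc27a1 at 108 units. Slc16a7, a second monocarboxylate carrier, was above on 11 arrays. The 7 above on none included Slc10a2, the bile salt carrier of ileum, and Slc13a3, a dicarboxylate carrier, with a mean of 11.5 units.

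Sugar carriers gave 3 of 11 above on all arrays. Slc37a4, which brings glucose 6-phosphate into the endoplasmic reticulum for the last step of glucose release, had a mean of 1297 units. Slc5a6, a sodium-coupled vitamin carrier, had 154 units and Slc2a5, the fructose carrier, 125 units. The glucose carrier Slc2a1 was above on 4 arrays and Slc5a1, the sodium-glucose carrier of gut, on 2. Slc2a4, the insulin-responsive carrier of muscle and fat, was above on none. In the organic cation and anion families 2 of 8 were above on all arrays, Slc22a18 at 901 units and the organic anion carrier Slc22a7 at 613 units, and the carnitine carrier Slc22a5 was above on 9.

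Of 9 amino acid carrier genes, only Slc3a2 and Slc7a5 stood above the reference level on all arrays, and the other 7 were above it on none. The 9 do not include Slc7a2, which the rule left out, or Slc38a4 and Slc38a3, which were not analysed here. Slc3a2 and Slc7a5 encode the heavy and the light chain of the same heterodimeric carrier of large neutral amino acids. Slc3a2 gave 406, 458, 367, 508 and 85.7 units in the supplemented, 390.2, 339.7, 459, 351 and 329 in the standard and 278, 346, 432 and 444 in the deficient group. Supplemented array 5 stood apart from the other 13, and it was also lowest for the second Slc3a2 probe set, with 49.2 units against at least 186. Slc3a1, the heavy chain of the cystine carrier of kidney and gut, gave 17.5, 10.3, 12.4, 20.4 and 22.4 units in the supplemented, 17.6, 9.33, 3.93, 19.4 and 25.8 in the standard and 14.4, 24.4, 8.25 and 13.7 in the deficient group. All 14 values of Slc3a1 lay below the reference level and the lowest was at the floor of 3.93 units. The promoter windows of this pair of heavy chains are shown because they hold different motifs, Slc3a2 from chr1:215048065-215048314 and Slc3a1 from chr6:15394750-15394999, both on the minus strand of GRCr8.
Slc3a2: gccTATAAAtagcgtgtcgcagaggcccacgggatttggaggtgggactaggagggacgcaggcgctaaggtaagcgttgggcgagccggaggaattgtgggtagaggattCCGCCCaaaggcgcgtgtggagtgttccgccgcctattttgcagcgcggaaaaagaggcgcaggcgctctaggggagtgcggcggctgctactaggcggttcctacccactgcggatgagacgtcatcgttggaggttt
Slc3a1: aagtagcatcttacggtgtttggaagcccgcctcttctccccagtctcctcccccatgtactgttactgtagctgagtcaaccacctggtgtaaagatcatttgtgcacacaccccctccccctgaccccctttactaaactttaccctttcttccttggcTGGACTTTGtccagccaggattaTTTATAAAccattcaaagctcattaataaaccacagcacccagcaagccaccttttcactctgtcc
Capitals mark a TATA box and a GC box for Slc3a2. For Slc3a1 they mark the HNF4 motif on the opposite strand and a pair of overlapping TATA box matches, so the liver motif found among the carriers above on none belonged to Slc3a1.

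Of 5 metal carriers, 2 were above the reference level on all arrays. Slc41a2, the member of the magnesium carrier family that the rule kept, gave 704, 892, 892, 766 and 697 units in the supplemented, 785, 976, 737, 701 and 586 in the standard and 729.8, 605, 813 and 721 in the deficient group. The 3 diets overlapped throughout: the difference was -0.07 ± 0.16 (SE) between deficient and standard, 0.07 ± 0.15 between supplemented and standard and -0.14 ± 0.16 between deficient and supplemented, on the log2 scale. Slc40a1, the iron exporter ferroportin that liver macrophages also make, had a mean of 115 units. The 3 zinc carriers Slc30a4, Slc30a2 and Slc30a1 were above on no array, with means of 27.7, 21.1 and 9.8 units.

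Ion exchangers were split, with 6 of 20 above on all arrays, 4 on some and 10 on none. The 6 were the sulfate carrier Slc26a1 (567 units), the potassium-chloride carriers Slc12a7 (187 units) and Slc12a4, the chloride-bicarbonate exchangers Slc4a2 and Slc4a1, and the sodium-calcium exchanger Slc8a1 (130 units). Slc4a1, the band 3 protein of red cells, had a mean of 68.7 units. Blood cell markers were present beside it: Hbb and Alas2 were above the reference level on all arrays and their summed signal ran from 2011 to 4204 units in the supplemented, 2270 to 2796 in the standard and 2673 to 4005 in the deficient group, and their part in the Slc4a1 signal was not tested. Slc4a4, a sodium-bicarbonate carrier, was above on 12 arrays and its relative Slc4a7 on 6. Slc12a1, the chloride carrier of the kidney loop, was at the floor on all arrays.

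Nucleoside and nucleotide sugar carriers gave 4 of 7 above on all arrays: Slc35b1 at 329 units, the nucleoside carriers Slc28a2 at 213 and Slc29a1 at 209, and the carrier of CMP-sialic acid, Slc35a1, at 88.9 units. Phosphate and vesicular carriers gave 1 of 8, Slc17a1 at 169 units. Slc18a3, the vesicular acetylcholine carrier of neurons, was nevertheless above on 12 arrays and the phosphate carrier Slc20a2 on 11, while the vesicular glutamate carrier Slc17a7 was above on none. The second Slc18a3 probe set was above on 1 array. In the transmitter family 2 of 14 were above on all arrays, the glycine carrier Slc6a9 at 236 units and Slc6a13, which carries GABA and taurine, at 235. The dopamine carrier Slc6a3 was above on 3 arrays and the serotonin carrier Slc6a4 on 1. The remaining families gave 3 of 9, the urea carriers Slc14a2 and Slc14a1 and the folate carrier Slc19a1.

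Being above background often depended on the probe set read. Of the 42 carriers with several probe sets, 11 had probe sets that differed in being above the reference level on all arrays, and 6 had a probe set above it on all arrays and another above it on none. These 6 were Slc14a1, Slc14a2, Slc17a1, Slc35a1, Slc4a1 and Slc8a1. The gap was widest for Slc14a2, a urea carrier known from kidney, whose probe sets had log2 means of 7.08 and 2.24, and for Slc8a1, with 7.02 for its brightest and 2.30 for its dimmest of 5. For Slc8a1, 4 of the 5 probe sets were above the reference level on no array, and for Slc4a1, 2 of 3. The other 5 with differing probe sets were Slc12a4, Slc2a5, Slc3a2, Slc40a1 and Slc5a6.

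The 36 carriers above the reference level on all arrays, each read by its brightest probe set, had a median SD within a diet of 0.28 (log2). The median was 0.32 for the 2396 probe sets that were above on all arrays. Those were not limited to the brightest of each gene, so the sets are not alike. Slc27a1 had the smallest SD, 0.17, and Slc28a2 the largest, 0.79. Over all 14 arrays, 16 of the 36 stayed within a 2-fold range and 5 spanned more than 4-fold. Slc28a2 ran from 95.7 units on supplemented array 5 to 623 on standard array 9, and Slc3a2 from 85.7 to 508. Slc2a5 ran from 58.0 to 287, Slc6a13 from 79.2 to 363 and Slc16a1 from 62.0 to 275. Supplemented array 5 held the highest value of 8 of the 36 and the lowest of 4, and deficient array 13 the lowest of 6.

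Diet was tested with limma on 5133 probe sets whose mean passed a signal of 14.3 units, in a fit over all 14 arrays with Benjamini-Hochberg adjustment over all of them. Of the 174 member probe sets 95 passed, reading 73 of the 115 genes. No member reached an adjusted p under 0.05 in any comparison, and the share of all tested probe sets that did was 0% between deficient and standard, 0% between supplemented and standard, 0.0195% between deficient and supplemented and 0.0195% in the F-test over the 3 diets. The 3 comparisons share arrays and are not independent of each other. The number of arrays limits the precision: the median SE of a member's difference was 0.25 on the log2 scale between deficient and standard and 0.23 between supplemented and standard.

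**Figure D2:**
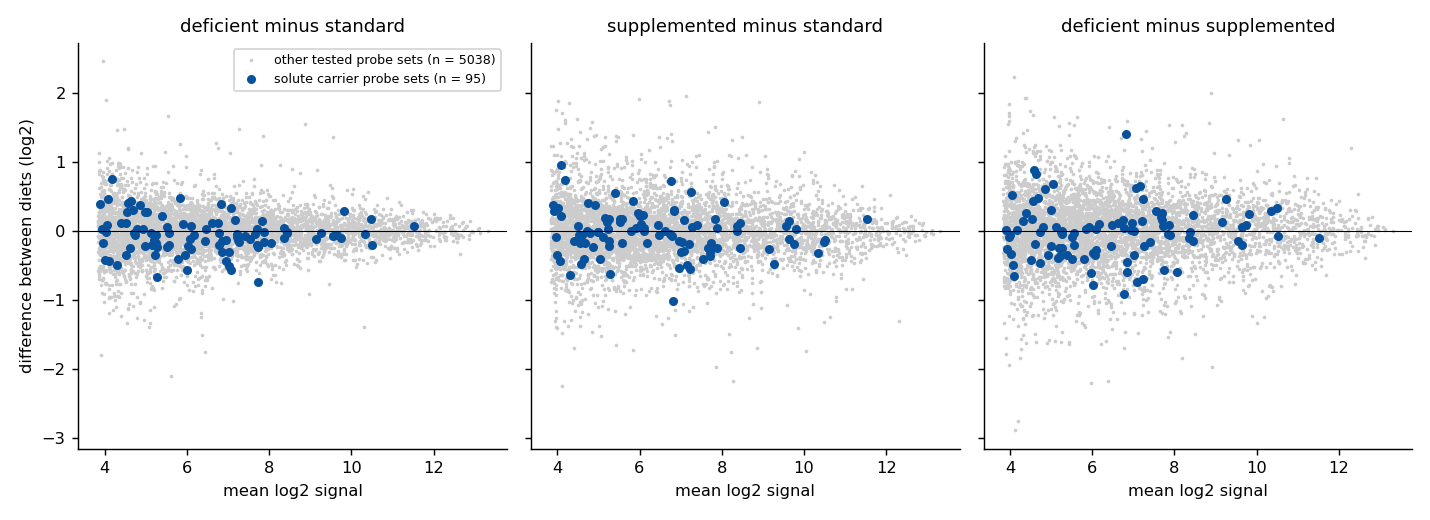
Difference between diets (log2) against mean log2 signal for the tested probe sets, with the 95 solute carrier probe sets in blue over the other tested probe sets in grey, for the 3 comparisons. The carriers lie within the cloud of other probe sets, with medians of -0.06, -0.02 and -0.02 from left to right.

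Between the deficient and the standard diet, no carrier passed the adjusted test and more of them were lower than higher in the deficient group. The member difference was -0.06 against 0.00 for all tested probe sets, and 33 of 95 (34.7%) were higher in the deficient group against 50.1% of all. With arrays centred on their medians in place of quantile normalisation, 48.4% of members and 58.5% of all were higher. An unadjusted p under 0.05 was reached by 2 of 95 (2.11%) against 3.04% of all, and at least 1.5-fold differences were seen in 3 against 5.94% of all. The smallest adjusted p of a member by limma was 0.999.

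The carriers with the smallest p in that comparison were Slc14a2 and Slc5a1. Slc14a2 gave 202, 131, 159, 126 and 123 units in the standard and 119.9, 107, 72.7 and 98.5 in the deficient group, after 112, 133, 158, 199.5 and 242 in the supplemented group. All 4 deficient arrays lay below all 5 standard arrays, a difference of -0.57 ± 0.24 (SE) on the log2 scale (unadjusted p = 0.032, adjusted p = 0.999 by limma, exact permutation p = 0.0079 for this gene alone, which is the smallest 4 against 5 arrays allow). Its dim second probe set did not pass the filter. Slc5a1 gave 63.6, 43.7, 47.9, 47.03 and 57.7 units in the standard and 37.2, 45.1, 21.98 and 30.4 in the deficient group, with 1 deficient array inside the standard range. The difference was -0.66 ± 0.29 (SE), with an unadjusted p of 0.037 and an adjusted p of 0.999 by limma. It was -0.43 without supplemented array 5, standard array 10 and deficient array 13, which stood apart in the Gapdh ratio. The second Slc5a1 probe set, above the reference level on no array, gave 23.4, 22.6, 22.7, 26.98 and 23.8 units in the standard and 19.9, 19.4, 18.7 and 17.3 in the deficient group, which did not overlap. Its difference was -0.34 ± 0.23 (SE). These were the 2 member probe sets (2.11%) whose arrays did not overlap, against 1.44% of all tested.

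The other carriers named in this comparison had no unadjusted p under 0.05. Slc28a2 differed by -0.75 ± 0.47, which came to -0.43 without standard array 9. Slc8a1 differed by -0.51 ± 0.39 and by -0.25 without deficient array 13 or -0.32 without deficient array 14, and Slc18a3 by -0.41 ± 0.22 and by -0.25 without deficient array 13. The second Slc18a3 probe set differed by -0.03 ± 0.32. The monocarboxylate carrier Slc16a7 differed by -0.35 ± 0.26 and by -0.20 without standard array 7 or -0.22 without deficient array 11. Slc26a2, a sulfate carrier above the reference level on no array, differed by 0.39 ± 0.27 and by 0.23 without deficient array 12, and Slc22a18 by 0.28 ± 0.16 and by 0.18 without standard array 7.

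Between the supplemented and the standard diet the median member difference was -0.02, as for all tested probe sets (-0.02). Of 95 members 44 (46.3%) were higher in the supplemented group against 47.7% of all. This split depended on the scaling: 62.1% of members were higher with the values as deposited and 30.5% with arrays centred on their medians, against 57.7% and 36.4% of all. An unadjusted p under 0.05 was reached by 6 members (6.32%) against 8.88% of all, and 6 (6.32%) differed at least 1.5-fold against 11.4%. The smallest adjusted p of a member by limma was 0.492.

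Slc4a7, a sodium-bicarbonate carrier, had the smallest p. It gave 43.9, 55.5, 63.9, 47.3 and 49.7 units in the supplemented, 35.1, 41.9, 43.5, 28.6 and 29.3 in the standard and 39.9, 33.4, 49.8 and 41.3 in the deficient group. All 5 supplemented arrays lay above all 5 standard arrays, the 1 member probe set (1.05%) without overlap against 1.81% of all. The difference was 0.56 ± 0.18 (SE; unadjusted p = 0.0081, adjusted p = 0.492 by limma, exact permutation p = 0.0079). The signal was near the reference level, which it passed on 6 of 14 arrays.

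Slc4a2, the chloride-bicarbonate exchanger AE2 that hepatocytes and bile duct cells use to export bicarbonate, gave 97.4, 109.6, 141, 106 and 108 units in the supplemented, 133, 142, 155, 162 and 197 in the standard and 188, 164, 244 and 126 in the deficient group. Supplemented arrays were low, with supplemented array 3 alone inside the standard range, and the difference from the standard diet was -0.49 ± 0.19 (SE; unadjusted p = 0.021, adjusted p = 0.499 by limma). The second Slc4a2 probe set differed by -0.29 ± 0.23 (SE), with an unadjusted p of 0.229 by limma. The Gapdh 3′ to 5′ ratio moved with the same groups, and with that ratio as a covariate the difference was -0.20, and with the actin ratio -0.30. Because the ratio differed between the diets, RNA quality and diet cannot be told apart by such a covariate, here or in the values given below. Of the bile duct markers, Cftr was above the reference level on no array and Krt19 on 1, and they summed to 30.9 to 42.9 units in the supplemented, 22.5 to 45.6 in the standard and 48.0 to 56.3 in the deficient group; their part in the Slc4a2 values was not tested.

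Slc22a7, which takes up organic anions across the sinusoidal membrane, gave 510.1, 489, 449, 460.2 and 583 units in the supplemented, 538, 533, 757, 831 and 892 in the standard and 618, 721, 844 and 579.8 in the deficient group. The supplemented arrays were lower than the standard arrays except where supplemented array 5 exceeded standard arrays 6 and 7, with a difference of -0.48 ± 0.17 (SE; unadjusted p = 0.014, adjusted p = 0.492 by limma). The second Slc22a7 probe set, also above the reference level on all arrays, gave 354, 311, 387, 244 and 425 units in the supplemented and 348, 255, 327, 362 and 327 in the standard group. Its difference of 0.07 ± 0.20 (SE) did not share the sign. The mitochondrial carrier Slc25a23 gave 101, 107, 127, 117 and 151 units in the supplemented and 138, 264, 225, 158 and 125 in the standard group, a difference of -0.55 ± 0.22 (SE; unadjusted p = 0.023, adjusted p = 0.501 by limma).

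The sixth probe set was the second of the iron exporter Slc40a1, at 163, 188, 196, 146 and 107 units in the supplemented and 85.5, 131, 114, 104 and 58.9 in the standard group. Its difference was 0.72 ± 0.32 (SE; unadjusted p = 0.038, adjusted p = 0.524 by limma), where the brightest Slc40a1 probe set gave 0.30 ± 0.23. Summed signals of the macrophage markers ran from 665 to 1011 units in the supplemented, 537 to 765 in the standard and 535 to 769 in the deficient group, and their part in the Slc40a1 values was not tested. Slc5a1 differed by -0.62 ± 0.27 (unadjusted p = 0.039, adjusted p = 0.528 by limma) on its brightest probe set and differed by 0.08 ± 0.22 on the second. Slc25a11 (0.42 ± 0.20), Slc12a7 (-0.40 ± 0.20) and Slc29a1 (-0.36 ± 0.18) had unadjusted p values above 0.05. Slc25a11 gave 0.08 with the Gapdh ratio as a covariate, 0.28 with centred arrays and 0.21 without supplemented array 5, standard array 10 and deficient array 13, and Slc29a1 gave -0.22 with the actin ratio.

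Between the deficient and the supplemented diet, small p values were more common over the whole array than in the other comparisons, and the carriers' share was again below that of all probe sets. The median member difference was -0.02 against 0.02 for all, and 10 of 95 (10.5%) reached an unadjusted p under 0.05 against 13% of all. At least 1.5-fold differences were seen in 15 (15.8%) against 16.4%. Of 95 members 45 (47.4%) were higher in the deficient group against 52.5% of all, with 33.7% against 42.6% for the values as deposited and 60% against 65.6% for centred arrays. With the Gapdh ratio as a covariate, 1 member (1.05%) in place of 10 had an unadjusted p under 0.05, and the share of all tested probe sets fell likewise, from 13% to 2.2%. That ratio differed between these 2 diets, so the fall cannot be ascribed to RNA quality or to diet.

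Slc4a2 had the smallest p, with a difference of 0.65 ± 0.20 (SE; 1.57-fold, unadjusted p = 0.0052, adjusted p = 0.264 by limma). Of the 4 deficient arrays 3 lay above all supplemented arrays, and deficient array 14, at 126 units, lay below supplemented array 3. Its second probe set gave 110.0, 83.9, 162, 123 and 89.9 units in the supplemented, 175, 126, 160.4, 96.0 and 133 in the standard and 118, 168, 225 and 192 in the deficient group, a difference of 0.63 ± 0.25 (SE; unadjusted p = 0.021, adjusted p = 0.332 by limma). Both probe sets thus gave nearly the same difference, though their names show that they were designed on the same sequence. With the Gapdh ratio as a covariate the brightest gave 0.30 and with the actin ratio 0.36.

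Slc14a2 was lower in the deficient than in the supplemented group by -0.73 ± 0.24 (SE; unadjusted p = 0.0086, adjusted p = 0.278 by limma), with deficient array 11 inside the supplemented range, and the difference was -0.43 with the Gapdh ratio as a covariate and -0.44 without the 3 arrays that stood apart. The oxoglutarate carrier Slc25a11 gave 376, 260.0, 324, 265 and 470.4 units in the supplemented, 257, 248, 307, 240.1 and 197 in the standard and 165, 252, 205 and 274 in the deficient group, a difference of -0.59 ± 0.21 (SE; unadjusted p = 0.015, adjusted p = 0.308 by limma). Its second probe set differed by 0.20 ± 0.17 in the other direction, and the brightest gave -0.17 with the Gapdh ratio as a covariate and -0.32 with centred arrays. Slc25a14, an uncoupling protein relative that was above the reference level on 1 array, differed by 0.83 ± 0.32, by 0.25 with the Gapdh ratio and by 0.42 with the actin ratio. The second Slc25a14 probe set, above the reference level on no array, differed by -0.33 ± 0.60 in the other direction.

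The sodium-bicarbonate carrier Slc4a4 had the largest difference of any member, 1.41 ± 0.58 (SE; 2.65-fold, unadjusted p = 0.029, adjusted p = 0.338 by limma). It gave 145, 78.4, 16.5, 218 and 32.2 units in the supplemented, 80.6, 113, 176, 186 and 150.0 in the standard and 184, 133, 193 and 207 in the deficient group. The difference rested on the low supplemented arrays 3 and 5, while supplemented array 4 was the highest of all 14, and without supplemented array 3 the difference was 0.90, as it was with the Gapdh ratio as a covariate. The exact permutation p for this gene was 0.13.

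Slc22a7 differed by 0.46 ± 0.19 (unadjusted p = 0.025, adjusted p = 0.335 by limma) and its second probe set by -0.02 ± 0.21. The brightest gave 0.31 with the Gapdh ratio, 0.24 with the actin ratio and 0.71 with centred arrays. Slc16a7 differed by -0.61 ± 0.26 (unadjusted p = 0.032, adjusted p = 0.356 by limma), or by -0.36 with the Gapdh ratio, and Slc25a23, with an unadjusted p above 0.05, by 0.46 ± 0.23. The second probe set of Slc40a1 differed by -0.92 ± 0.33 and that of Slc35b1 by -0.59 ± 0.23, with adjusted p values of 0.308 and 0.328 by limma. The brightest probe sets of these genes differed by -0.45 ± 0.25 and -0.10 ± 0.17. Slc22a18 was the 1 member (1.05%, against 4.95% of all tested) whose arrays did not overlap, at 837, 872, 881, 831 and 899 units in the supplemented and 1077, 1171, 940.3 and 942 in the deficient group. Its difference was only 0.25 ± 0.16, and the standard arrays, at 743, 635, 1125, 1042 and 780.0 units, overlapped both groups.

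**Figure D3:**
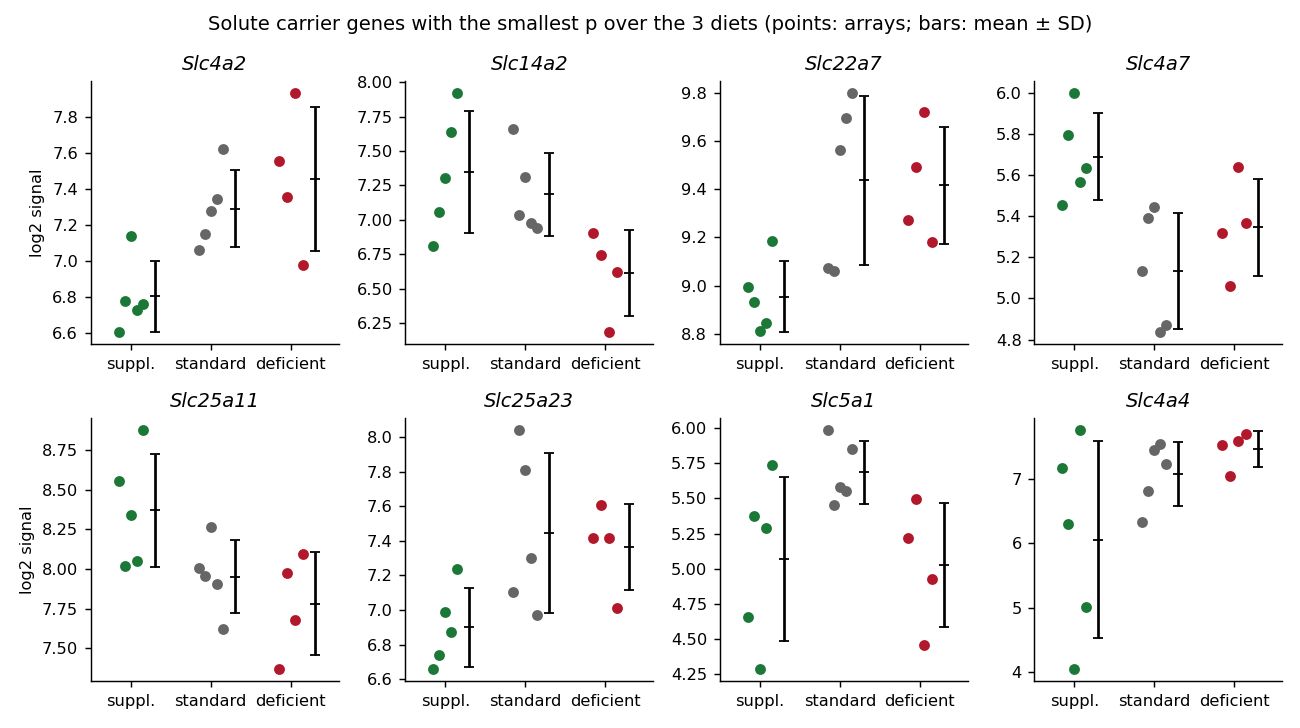
Log2 signal of the 8 solute carrier genes with the smallest p in the F-test over the 3 diets, with a point for each array and, beside each group, its mean ± SD (n = 5 supplemented, 5 standard, 4 deficient). Slc4a7 separates supplemented from standard arrays and Slc14a2 deficient from standard arrays; no gene passed an adjusted p of 0.05.

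Genes with more than 1 tested probe set allowed the differences to be read more than once. There were 20 such carriers. All tested probe sets of a gene shared the sign of the difference in 14 of 20 between deficient and standard, in 6 of 20 between supplemented and standard and in 9 of 20 between deficient and supplemented. Slc16a1 gave 0.57 and -0.08 on its brightest and second probe set between supplemented and standard, and Slc25a11 gave 0.42 and -0.25.

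**Figure D4:**
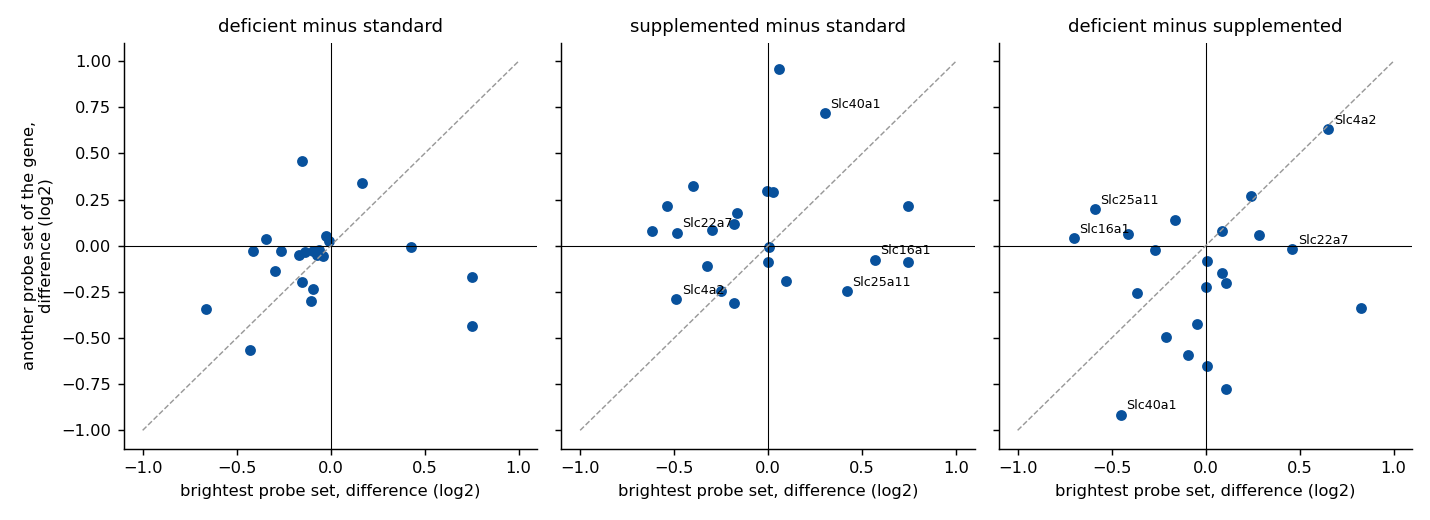
Difference (log2) on another tested probe set of a gene against the difference on its brightest, 22 pairs from 20 solute carrier genes, for the 3 comparisons; the dashed line marks equal differences and points to the upper left and lower right have opposite signs. Slc4a2 lies on the line in the third panel (0.65 and 0.63), and Slc25a11 has opposite signs there (-0.59 and 0.20).

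By role, no group of carriers had more than 2 genes with an unadjusted p under 0.05 in a comparison. Mitochondrial carriers were higher in 6 and lower in 6 of 12 tested genes between deficient and standard, with a median of 0.03, and higher in 4 and lower in 8 between supplemented and standard, with a median of -0.14. Ion exchangers were higher in 4 and lower in 7 of 11 in both of these comparisons. Sugar carriers were higher in 1 and lower in 6 of 7 between deficient and standard, with a median of -0.15. Of all tested probe sets, 50.1% were higher between deficient and standard and 47.7% between supplemented and standard, shares that depended on the scaling. None of the member differences counted here passed the adjusted test. Of the 25 tested probe sets of other transporters, 0 reached an adjusted p under 0.05 by limma. An unadjusted p under 0.05 was reached by 1, 4 and 3 of them (4%, 16% and 12%) in the 3 comparisons in the order given above. The shares of all tested probe sets were 3.04%, 8.88% and 13%.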

How the data were processed

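The authors deposited a table of linear signal intensity for 14 arrays; the software that made the signals is not given in the sources used here. Each array's mean signal after trimming 2% at each end was 150.3, so arrays had been scaled alike. Gene names came from the platform annotation (7006 of 8740 probe sets with 1 symbol, 308 with several, 1426 with none). The log2 values of the deposited intensities were quantile-normalised over probe sets that were not controls, set to a floor at the pooled 20th percentile and tested where their mean passed the pooled 40th percentile (5133 probe sets), with limma 3.58.1 in R 4.3.3 (trend of the spread on the mean). The script was tested on simulated data. The brightest probe set stands for a gene. Named carriers were the 20 brightest, the 8 with the smallest p in each comparison, listed carriers of hepatocytes and of other tissues, and genes with differing probe sets. Slc27a5, Slc38a4, Slc38a3, Slc25a13 and Slc25a15 were listed but not analysed here. Single-gene exact permutation tests were two-sided. Promoter windows came from the RefSeq table of build GRCr8. The members and lists were chosen with earlier results of these data known. Alternatives changed scaling, floor, filter, weights, RNA quality covariates and arrays.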

Additional observations from a re-analysis of the deposited data

Results flagged for a closer look

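Within each diet, Dixon's test was used on the log2 signals of the 49 named carriers on the array, in 142 groups. It marks an array far from the others of its group. Chance marks about 5% of groups, a rate that does not hold where values are tied at the floor. Here 4 groups were marked. On supplemented array 5, Slc3a2 was at 6.42 where the other supplemented arrays lay between 8.52 and 8.99. On the same array Slc6a13 was at 6.31 against 8.00 to 8.48, and Slc25a5 at 9.85 against 10.63 to 10.69. All 3 were low there, and that array also had the lowest mean rank correlation with the other arrays (0.913) and the lowest Gapdh 3′ to 5′ log2 ratio (-0.12); the part of either in these values was not tested. Slc17a7 was at 2.06 on supplemented array 4, where the other supplemented arrays were at the floor of 1.97, and stood above the reference level on no array. With the others tied at the floor, any value above it would have been marked.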

How the results depend on the processing

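No member passed an adjusted p of 0.05 in limma under any alternative run, and no named difference changed direction. The smallest adjusted p of a member over the alternatives was 0.938 between deficient and standard, 0.359 between supplemented and standard, 0.082 between deficient and supplemented and 0.178 in the F-test. The 46 probe sets above the reference level on all arrays became 53 with the 90th and 33 with the 99th percentile of the reference probe sets, 52 with 12 or more of 14 arrays, and 46 to 47 with an array left out. Counts at an unadjusted p under 0.05 moved more. Without the filter they were out of all 174 member probe sets in place of 95, so those counts cannot be set directly beside the others. Of all tested probe sets, 3.04%, 8.88%, 13% and 9% had such a p in the 3 comparisons and the F-test. These shares were 2.75%, 2.57%, 2.2% and 2.28% with the Gapdh ratio and 3.25%, 4.77%, 4.75% and 3.68% with the actin ratio. Between deficient and standard (2) there were 7 without the filter, 1 each with the values as deposited, the stricter filter, array weights and either RNA ratio as a covariate, 0 without supplemented array 5, standard array 10 and deficient array 13, and 0 (without standard array 6) to 5 (without standard array 9) with an array left out. Between supplemented and standard (6) there were 13 without the filter, 11 with array weights, 3 and 2 with the Gapdh and actin ratios, and 4 to 11 (without supplemented array 5) with an array left out. Between deficient and supplemented (10) there were 1 and 3 with these ratios and 5 (without deficient array 13) to 13 with an array left out. In the F-test (6) there were 11 without the filter, 10 with array weights, 1 and 2 with the ratios, and 3 (without supplemented array 3) to 8 with an array left out. With arrays centred on their medians, the median difference of all probe sets was 0.17 (0.02 after quantile normalisation) between deficient and supplemented and -0.11 (-0.02) between supplemented and standard; the cause was not tested. No paired analysis was possible because array numbers run from 1 to 14 across the diets and no number is shared.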
